A study of Mus musculus with 8 samples.

Results

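The Ms4a genes encode a family of small membrane proteins that cross the cell surface with 4 helices and keep both ends inside the cell. The 8 members described here, Ms4a6b, Ms4a4b, Ms4a4c, Ms4a6c, Ms4a6d, Ms4a1, Ms4a3 and Ms4a7, were chosen by gene symbol from the deposited count table, with the differences between tRA and control in these same mice already known. They are 8 of the 51826 genes of the table and 8 of the 19 genes in it whose symbol begins with Ms4a. All tRA against control values of the members are therefore a description. Counts of members that passed a test are given beside those over all genes, and nothing is supported by any of these values.

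Proteins of the family sit beside signalling receptors of blood cells. Ms4a1, better known as CD20, is the surface marker of B cells that therapeutic antibodies bind, and Ms4a2 is the beta chain of the high-affinity IgE receptor of mast cells and basophils. Other members mark T cells, monocytes, macrophages or developing granulocytes, so that in a spleen their RNA comes from several cell types at once.

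RNA was sequenced from total spleen cells of 8 female Balb/c mice, 4 given all-trans retinoic acid (tRA), the hormone form of vitamin A, and 4 controls. The mice were 3 months old and had received daily oral doses from weaning; tRA was given at 1 mg/kg in canola oil, and the study describes vehicle for the controls. The treatment field of the sample labels reads 1 mg/kg tRA for all 8 mice, so the groups here follow the sample titles. No mouse had received pristane, the oil that induces lupus-like disease in this strain.

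The libraries held 30919272 to 37539631 counted reads in the controls (median 33879268) and 31810417 to 35165876 in the tRA mice (median 32899174.5). The 8 members together took between 0.106% and 0.152% of the counts of a mouse. Levels are given in CPM, a gene's count scaled to a common library total. The library kit does not mark the strand of the RNA, and all libraries ran in one lane.

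Marker genes of the main cell types of a spleen were present. Markers of B cells summed to between 7245 and 8321 CPM per mouse, led by Cd79a, a chain of the B cell receptor. T cell markers summed to between 1932 and 2349 CPM, led by the kinase gene Lck, and markers of red pulp macrophages, the iron-recycling cells of the spleen, to between 559 and 1025 CPM. Genes of spleen stroma, the connective tissue frame, were near 0: all 6 had a mean over the 8 mice under 1 CPM, and their sum in a mouse was between 1.13 and 3.63 CPM. Of 5 platelet genes 4 had a mean under 1 CPM.

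Levels of different genes can be set in order only per length of the gene. In CPM per kilobase of exon, Ms4a1 was highest, with a lowest, median and highest value over the 8 mice of 76.2, 103 and 120. It was followed by Ms4a6b at 59.1, 71.2 and 86.5, then Ms4a4c at 33.9, 42.4 and 47.4, and Ms4a4b at 17.5, 22.3 and 24.9. Each gene exceeded the next in 8 of 8 mice, although the ranges of Ms4a1 and Ms4a6b overlapped. Lower levels were those of Ms4a6c (12.4, 16.1 and 20.1) and Ms4a6d (3.85, 6.63 and 8.33), and the ranges of Ms4a4b and Ms4a6c overlapped. The place of Ms4a6c is uncertain, since a gene on the opposite strand shares much of its exon sequence. Ms4a3 (0.243, 0.474 and 0.920) and Ms4a7 (0.239, 0.364 and 0.439) were the lowest and could not be ordered, since Ms4a3 was above Ms4a7 in 5 of 8 mice. Taking the median length of the coding transcripts in place of all exons, Ms4a4c and Ms4a4b also overlapped (Ms4a4c above in 5 of 8 mice), and Ms4a3 lay above Ms4a7 in 2 of 8 mice.

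Ms4a1 (ENSMUSG00000024673, chr19:11249675-11266241, minus strand of GRCm38) was the member with the most reads, 173531 over the 8 mice. Its levels were 741, 619.6, 563 and 471 CPM in control mice 1 to 4 and 649, 745, 626 and 738 CPM in tRA mice 1 to 4. Control mouse 4 was the lowest, control mouse 1 stood among the highest tRA mice, and the groups overlapped. The means were 599 ± 113 CPM and 689.6 ± 60.8 CPM (SD, n = 4 each), a log2 fold change, tRA over control, of 0.20 with a standard error of 0.127. Of the 10 B cell markers as a whole, 5 had a log2 fold change above 0 and 5 below, with a median of -0.01. Their sums were 8321, 7930, 7682 and 7245 CPM in the controls and 7700, 7818, 7881 and 7688 CPM in the tRA mice.

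Ms4a6b and Ms4a4b are the members known from T cells. Ms4a4b, also called Chandra, is a T cell surface protein that binds the costimulatory receptor GITR and slows T cell division, and Ms4a6b is a close relative found on T cells, regulatory T cells among them.

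Ms4a6b (ENSMUSG00000024677, chr19:11516512-11531256, plus strand) was at 265, 300.4, 299 and 310.5 CPM in control mice 1 to 4 and at 328, 359, 379.7 and 388 CPM in tRA mice 1 to 4. All 4 tRA mice lay above all 4 controls, with the lowest value of each group in mouse 1. The means were 294 ± 19.8 CPM and 364 ± 26.4 CPM (SD, n = 4 each), 1.24-fold apart, and the log2 fold change was 0.31 (standard error 0.0781). It was the only member whose groups did not overlap, 1 of 8; of all 16484 genes tested, 1.91% had every tRA mouse above every control, and since the members were chosen with this contrast known, nothing is read from the count.

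Ms4a4b (ENSMUSG00000056290, chr19:11443553-11467055, plus strand) was at 153, 172, 196 and 173 CPM in control mice 1 to 4 and at 195, 199, 215 and 219 CPM in tRA mice 1 to 4. Control mouse 3 reached the lowest tRA mouse, and the other 3 tRA mice lay above all controls. Its log2 fold change was 0.26, with a standard error of 0.0814. Markers of T cells were also higher in 8 of 10 genes, with a median log2 fold change of 0.15, against 0.00136 over all genes tested, and 3 of the 10, all higher, were at an unadjusted p under 0.05, beside 2.94% of all genes that were higher at such a p. Their sums were 1932, 1981, 2217 and 2336 CPM in the controls and 2328, 2251, 2275 and 2349 CPM in the tRA mice, so that controls 1 and 2 were lowest and the groups overlapped.

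Set against that sum in the same mouse, Ms4a6b was at 137, 152, 135 and 133 CPM per 1000 CPM of T cell markers in the controls and at 141, 160, 167 and 165 in the tRA mice. On this scale control mouse 2 lay above tRA mouse 1, and the groups overlapped. Ms4a4b was at 79.3, 86.8, 88.5 and 73.9 per 1000 in the controls and at 83.7, 88.6, 94.7 and 93.2 in the tRA mice, also with overlap. In RNA of total spleen cells, fewer or more cells of a type cannot be told apart from less or more RNA per cell, and the part of T cell number in these differences was not tested.

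Ms4a4c, Ms4a6c and Ms4a6d are best known from monocytes and macrophages. Ms4a6c (ENSMUSG00000079419, chr19:11469366-11482192, plus strand) was at 25.5, 32.8, 32.2 and 33.1 CPM in control mice 1 to 4 and at 30.3, 38.5, 38.6 and 41.1 CPM in tRA mice 1 to 4. Mouse 1 was the lowest in each group, and the other 3 tRA mice lay above all controls. The log2 fold change was 0.27 (standard error 0.114). Ms4a6d (ENSMUSG00000024679, chr19:11586604-11604849, minus strand) was at 6.68, 12.5, 11.4 and 8.69 CPM in the controls and at 14.4, 11.6, 11.3 and 12.9 CPM in the tRA mice. Controls 1 and 4 were low, controls 2 and 3 lay among the tRA mice, and the log2 fold change was 0.36 (standard error 0.182).

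Ms4a4c (ENSMUSG00000024675, chr19:11404770-11427246, plus strand) was at 69.0, 78.3, 77.2 and 59.4 CPM in the controls and at 77.0, 69.4, 71.6 and 83.0 CPM in the tRA mice. The groups were mixed throughout, with a log2 fold change of 0.08 and a standard error of 0.0962. Of the monocyte markers 4 of 10 had a log2 fold change above 0, the median was -0.11, and their sums, led by Csf1r, were 350, 580, 503 and 444 CPM in the controls and 367, 446, 513 and 524 CPM in the tRA mice. Per 1000 CPM of monocyte markers, Ms4a6c was at 72.9, 56.5, 64.0 and 74.6 in the controls and at 82.6, 86.2, 75.3 and 78.4 in the tRA mice. On this scale, for which no share over all genes was computed, the lowest tRA mouse (75.3) lay just above the highest control (74.6), while in CPM the groups overlapped. Ms4a6d on that scale was at 19.1, 21.6, 22.7 and 19.6 against 39.4, 26.0, 22.0 and 24.7, with tRA mouse 3 inside the control range. Each member other than Ms4a6c overlapped between groups when set against the markers of its own cell type. The counts of Ms4a6c are uncertain, since a gene on the opposite strand shares much of its exon sequence.

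Ms4a7 (ENSMUSG00000024672, chr19:11321039-11336146, minus strand), a macrophage gene, was at 1.73, 1.77, 1.39 and 1.07 CPM in the controls and at 1.34, 1.51, 1.93 and 1.96 CPM in the tRA mice, from 429 reads in all. The groups overlapped, and the log2 fold change of 0.18 was smaller than its standard error of 0.228. Of the 10 red pulp macrophage markers 8 had a log2 fold change below 0, with a median of -0.10. Their sums were 825, 1025, 755 and 622 CPM in the controls and 559, 779.7, 916 and 705 CPM in the tRA mice, led by Hmox1, a heme-degrading enzyme.

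Ms4a3, also known as HTm4, is a cell cycle regulator that is switched on as granulocytes form from their precursors. The gene (ENSMUSG00000024681, chr19:11629496-11640851, minus strand) was at 0.893, 0.996, 1.73 and 1.36 CPM in control mice 1 to 4 and at 0.458, 0.472, 0.895 and 0.703 CPM in tRA mice 1 to 4. It was the only member with lower levels in tRA: tRA mice 1, 2 and 4 lay below all controls, and tRA mouse 3 passed control mouse 1 by a small margin. These levels rested on 33, 32, 60 and 42 reads in the controls and 15, 15, 33 and 23 reads in the tRA mice. The means were 1.24 ± 0.382 CPM and 0.632 ± 0.208 CPM (SD, n = 4 each), a ratio of 0.512 and a log2 fold change of -0.97 with a standard error of 0.313.

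Markers of granulocyte precursors were lower with it. All 10 of 10 had a log2 fold change below 0, with a median of -0.87; one of them, Chil3, is also in the monocyte list. In edgeR 9 of them were at an unadjusted p under 0.05 and 0 at a false discovery rate (FDR) under 0.1, while DESeq2 had 3 at an FDR under 0.1, the granule genes Camp, Ngp and Ltf, named after their values were seen. Over all genes, 3.55% were lower at such a p in edgeR, and 0.198% passed the FDR in DESeq2. The study itself lists Camp, Ngp and Ltf among its significant genes in these mice, and the marker list was chosen with earlier results known. The values of this list are therefore a description and support nothing. The sums of the 10 markers, led by Ngp, a gene of neutrophil granules, were 508, 639, 681 and 579 CPM in the controls and 229, 283, 314 and 444 CPM in the tRA mice, so that every tRA mouse lay below every control. Among all single genes tested, 1.63% had every tRA mouse below every control. Per 1000 CPM of these markers Ms4a3 was at 1.76, 1.56, 2.55 and 2.34 in the controls and 2.00, 1.67, 2.85 and 1.58 in the tRA mice. On this scale the groups overlapped, with means of 2.05 ± 0.468 and 2.03 ± 0.577 (SD, n = 4 each). The part of granulocyte precursors in the level of Ms4a3 was not tested. Markers of mature neutrophils were less apart: 4 of 6 were below 0, 2 of the 6, both lower, were at such a p, the median was -0.27, and their sums (544, 904, 710.4 and 693 CPM against 641, 586, 463 and 825 CPM) overlapped.

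**Figure D1:**
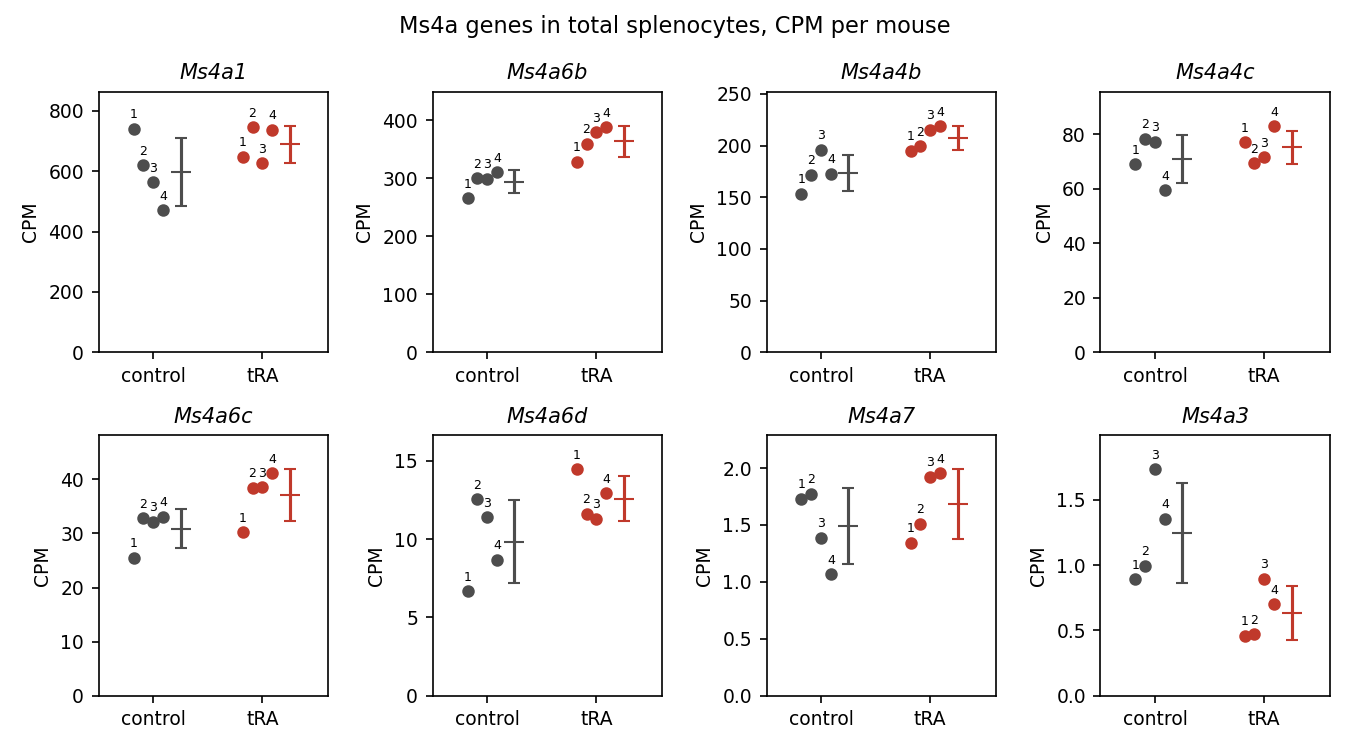
Level of each of the 8 Ms4a members in CPM (vertical axes, starting at 0) in the 4 control and the 4 tRA mice; each point is a mouse with its number, each bar a group mean and each error bar 1 SD. Ms4a6b is the only member whose tRA mice (328 to 388 CPM) all lie above its controls (265 to 310.5 CPM), and Ms4a3 the only one with a lower tRA mean (0.632 against 1.24 CPM).

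Counted together, 7 of the 8 members had a log2 fold change above 0 and 1 below, with a median of 0.23, against 50.3% above 0 and a median of 0.00136 over the 16484 genes tested. The test across all genes was a quasi-likelihood F-test in edgeR, with an FDR under 0.1 as threshold. It called 0 of the 8 members and 0 of 16484 genes (0%). At an unadjusted p under 0.05 it had 4 of the 8 members, beside 6.49% (1070) of all genes, with 3 members higher and 1 lower, beside 2.94% and 3.55% of all genes. DESeq2 gave an FDR to 7 of the 8 members, not to Ms4a3, and called 0 of the 7, and 27 of 13625 genes (0.198%). Since these values chose the members, nothing is read from the counts.

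The other 11 Ms4a genes of the table were low. For 5 of them, Ms4a5, Ms4a10, Ms4a12, Ms4a13 and Ms4a18, not 1 read was counted. A count of 0 allows 3 reads, which would be between 0.0799 and 0.0970 CPM in these libraries with library size alone as scaling. The levels of genes were also scaled by TMM, so that this limit is not on quite the same scale. It covers counting error only. The other 6 passed the filter on low counts. Ms4a4a, a partner of the fungal receptor dectin-1 on macrophages, was at 4.38 to 8.35 CPM in the controls and 5.10 to 7.27 CPM in the tRA mice, and Ms4a8a was at 0.650 to 2.21 CPM and 1.74 to 2.03 CPM. Ms4a2, Ms4a14, Ms4a4d and Ms4a15 each had a median under 1 CPM. Of these 6 genes 5 had a log2 fold change above 0 and 1, Ms4a15, below. Ms4a15, with 81 reads in all, had every tRA mouse below every control, as did 1.63% of all genes tested.

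Within a group, mice differ from each other for reasons that the choice of members did not use, and these differences can be compared between genes. For each mouse the deviation is its log2 CPM minus its group's mean, so that the difference between tRA and control is removed. Each member was paired with the marker list of the cell type it is best known from, 8 relations in all, and Pearson's r and Spearman's rho were computed over the 8 mice. The p values come from an exact two-sided permutation of the mice within each group (576 arrangements, of which 0.00174 is the smallest p possible), with Benjamini-Hochberg adjusted values over the 8 relations. None of the 8 had an adjusted p under 0.05; the adjusted p for r was between 0.0972 and 0.405 and that for rho between 0.117 and 0.193.

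Ms4a1 and the B cell markers had r = 0.90 and rho = 0.79 (exact permutation p = 0.0417 and 0.0382; adjusted 0.135 and 0.117), the highest r of the 8 relations but not the highest rho. Control mouse 1, with a deviation of 0.33 in Ms4a1 and 0.10 in the list, and control mouse 4, with -0.33 and -0.10, stood at the ends. Without the 2 mice farthest from the median r was 0.37, so that the relation rested on them. The tRA mice, whose B cell marker sums were within 7688 to 7881 CPM, differed little in the list.

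Ms4a6c and monocyte markers had r = 0.87 and rho = 0.76 (exact permutation p = 0.0122 and 0.0434; adjusted 0.0972 and 0.117). Mouse 1 of each group was low in Ms4a6c, at -0.27 and -0.28, and without the 2 farthest mice r was 0.38, so that this relation too rested on a pair of mice. Ms4a6d and the same list had r = 0.70 and rho = 0.62 (exact permutation p = 0.118 and 0.193; adjusted p for r 0.157), r = 0.85 without 2 mice and r = 0.21 without control mouse 1 alone. For Ms4a4c r was 0.43 and rho 0.62 (exact permutation p = 0.405 and 0.161; adjusted p for r 0.405), and r was 0.90 without the 2 mice.

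Ms4a7 and red pulp macrophage markers had r = 0.76 and rho = 0.71 (exact permutation p = 0.0573 and 0.0729; adjusted p for r 0.135), and r = 0.63 without 2 mice. Ms4a3 and granulocyte precursor markers had r = 0.66 and rho = 0.81 (exact permutation p = 0.101 and 0.0521; adjusted p for r 0.157), and r = 0.71 without 2 mice. For Ms4a6b and T cell markers r was 0.60 and rho 0.62 (exact permutation p = 0.0677 and 0.115; adjusted p for r 0.135), falling to 0.18 without 2 mice, and with the replicate number removed as a block, which leaves 4 differences between mice of the same number, r was -0.64. For Ms4a4b r was 0.54 and rho 0.71 (exact permutation p = 0.365 and 0.0729; adjusted p for r 0.405), and r was 0.63 without 2 mice, 0.16 without control mouse 1 alone and 0.09 with the block.

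The deviations of a member were also set against the other marker lists, as a description over the same 8 mice, which share their libraries and scaling. Among the 13 cell type lists, the paired list gave the highest r for 2 of the 8 members, Ms4a1 and Ms4a7, and another list gave a higher r for 6. For Ms4a6b r was 0.89 with granulocyte precursors, 0.84 with monocytes and 0.76 with dendritic cells. Ms4a4b had r = 0.81 with monocytes, 0.70 with granulocyte precursors and 0.69 with natural killer cells. The highest r was 0.88 with granulocyte precursors for Ms4a6c, 0.72 with natural killer cells for Ms4a6d, 0.61 with mature neutrophils for Ms4a4c and 0.67 with the near-absent spleen stroma genes for Ms4a3. Ms4a1 ran opposite to T cell markers (r = -0.81) and to regulatory T cell markers (r = -0.95), and Ms4a7 had r = 0.69 with B cells and -0.70 with T cells.

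Among the members themselves 28 pairs of deviations were compared, a comparison chosen after seeing the data. In 21 pairs r was above 0 and in 7 below, with a median of 0.20. Ms4a6b and Ms4a6c were the closest pair, with r = 0.97 and rho = 0.95 (exact permutation p = 0.00174, the smallest the design can give, and 0.00347; adjusted over the 28 pairs 0.0486 and 0.0972). Their deviations were -0.15, 0.03, 0.03 and 0.08 for Ms4a6b and -0.27, 0.09, 0.07 and 0.11 for Ms4a6c in control mice 1 to 4. In tRA mice 1 to 4 they were -0.14, -0.02, 0.06 and 0.10 for Ms4a6b and -0.28, 0.06, 0.07 and 0.16 for Ms4a6c. Mouse 1 of each group stood apart below the rest in both genes. Over the other 6 mice r was 0.75, and with the replicate number removed as a block it was 0.60 over 4 differences (exact permutation p = 0.417), so that the r of 0.97 rested in part on these mice. With library size alone as scaling r was 0.97 but its exact permutation p 0.00521 and adjusted p 0.146, so that the adjusted p under 0.05 was lost.

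No other pair had an adjusted p under 0.05. Ms4a4b and Ms4a3 had r = 0.87 and rho = 0.93 (exact permutation p = 0.0156 and 0.0174; adjusted p for r 0.219), and 0.85 without 2 mice. Ms4a6b and Ms4a4b, the T cell members, had r = 0.75 and rho = 0.74 (exact permutation p = 0.0556 and 0.0660), with 0.29 without 2 mice. The neighbours Ms4a4b and Ms4a4c had r = 0.36 and rho = 0.24 (exact permutation p = 0.521 and 0.642; adjusted p for r 0.858). Ms4a1 ran opposite to 5 members, with the lowest r, -0.55, against Ms4a3.

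**Figure D2:**
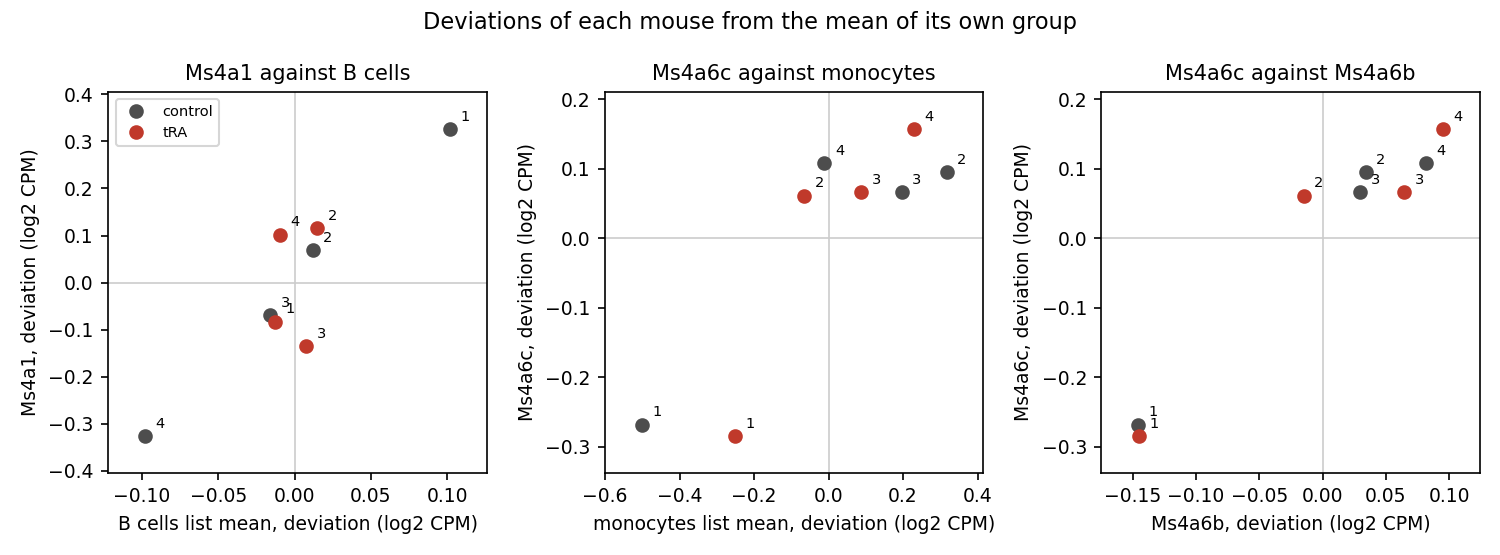
Deviations from the group mean (log2 CPM) of Ms4a1 against B cell markers, Ms4a6c against monocyte markers and Ms4a6c against Ms4a6b; each point is 1 of the 8 mice, coloured by group and labelled with its number. The r values are 0.90, 0.87 and 0.97, and mouse 1 of each group lies at the lower end for Ms4a6b and Ms4a6c.

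The genes most like Ms4a6b in these deviations, among the 16483 other genes tested and over the 8 mice, were Gm36933 (r = 0.990), Slc25a45, a mitochondrial carrier gene (0.984), Zbtb45 (0.978), Gm36262 (0.977) and Tdgf1 (0.972). Ms4a6c stood at rank 9 with 0.967, and Ms4a4b at rank 1008. Ms4a4d, the next Ms4a gene on the plus strand, ran opposite to Ms4a6b (r = -0.92, rank 16399), but had only 146 reads over the 8 mice. For Ms4a4b the nearest genes were Dennd2a (0.994), Plxna4os1 (0.991), Ggcx, the vitamin K dependent carboxylase (0.983), Khk, the fructose kinase (0.973), and Leng1 (0.967), and Ms4a3 stood at rank 135 with 0.871. The highest r of a member with any other gene was 0.971 or more for each of the 8 members. A closest gene at such an r was thus found for every member when 16483 genes were compared over 8 mice.

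The 19 genes whose symbol begins with Ms4a in the annotation lie in one stretch of chromosome 19, chr19:10962293-11640851 in GRCm38, 679 kb long, with 16 genes of other symbols between them. The RefSeq table also has a promoter of an Ms4a19 in this stretch, a symbol that the annotation does not use, so that the family may be larger than this count. That promoter begins at base 11165281, inside the extent of 1700025F22Rik (chr19:11139664-11165320), 1 of the 16, for which not 1 read was counted. Of the 19 genes 13 are on the minus strand and 6 on the plus strand, and the 6 lie side by side. They are Ms4a4a, Ms4a4c, Ms4a4b, Ms4a6c, Ms4a6b and Ms4a4d, so that 4 of the 8 members follow each other among the Ms4a genes of one strand, with Ms4a4b ending 2310 bases before Ms4a6c begins. Ms4a1 lies between Ms4a12 and Ms4a5, for which not 1 read was counted.

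Of the 16 other genes 7 were tested, 6 with a log2 fold change above 0 and 1, the long noncoding RNA AW112010, below. Over all genes tested, 50.3% were above 0. Levels of AW112010 were 76.6, 81.0, 108 and 88.4 CPM in the controls and 81.0, 75.5, 86.0 and 79.3 CPM in the tRA mice, which overlapped. Gm8369, between Ms4a6c and Ms4a6b, also overlapped, with 46.1, 47.7, 37.8 and 37.6 CPM in the controls and 51.6, 48.3, 35.4 and 42.2 CPM in the tRA mice. BE692007, a noncoding transcript on the strand opposite to Ms4a6c, was at 51.3, 50.5, 47.4 and 43.6 CPM in the controls and 52.4, 64.0, 57.2 and 63.0 CPM in the tRA mice. All 4 tRA mice of BE692007 lay above the controls, as was the case for 1.91% of all genes tested. Its log2 fold change was 0.29, with a standard error of 0.0843.

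**Figure D3:**
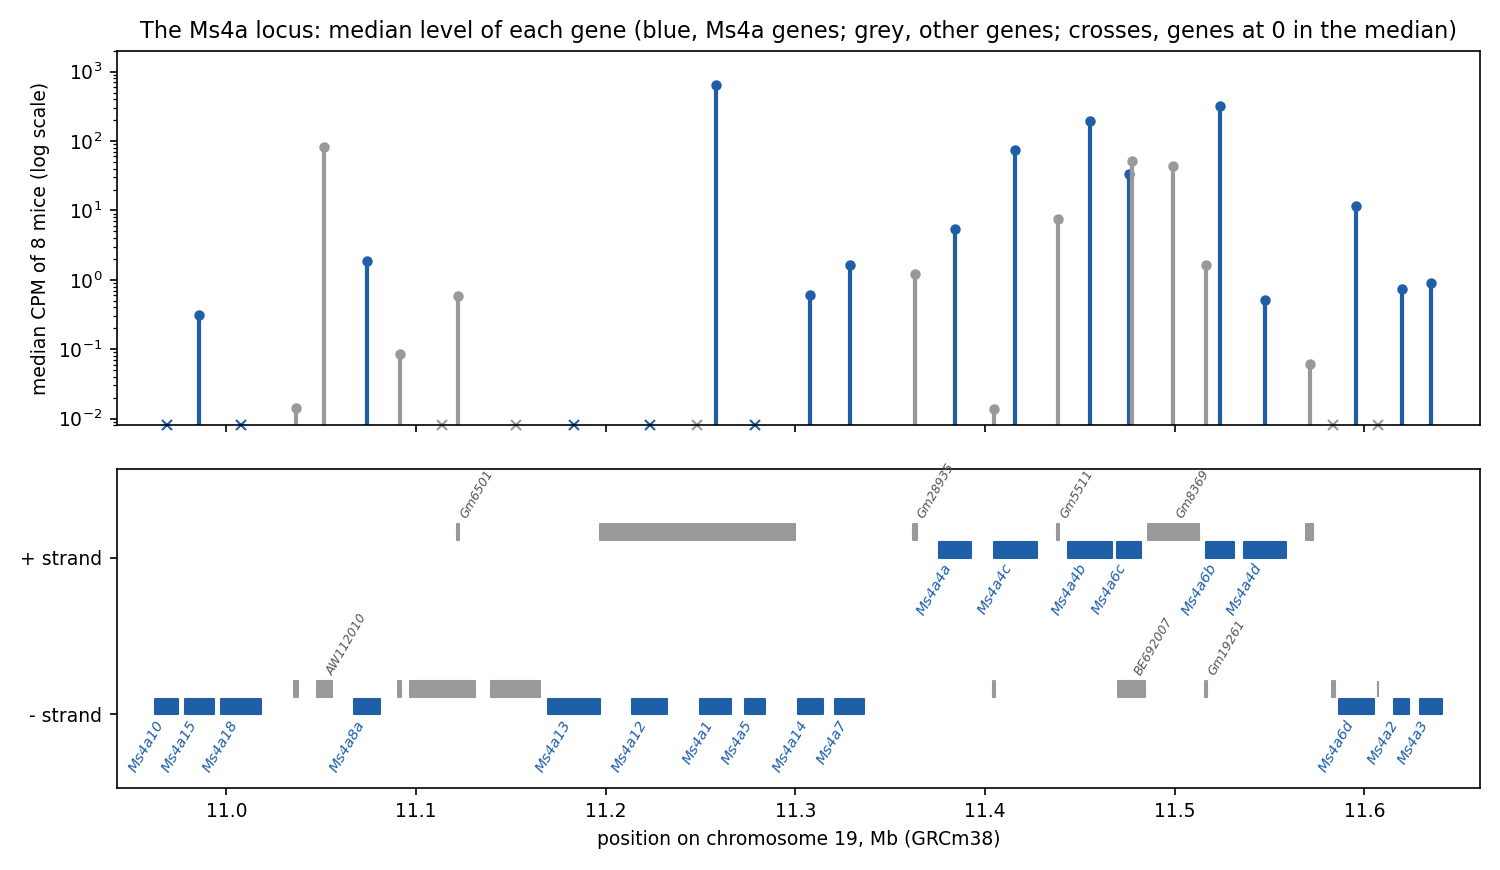
The Ms4a stretch of chromosome 19 (horizontal axis, position in Mb, GRCm38); the upper panel gives the median CPM of the 8 mice for each gene on a log scale, with crosses for genes whose median is 0, and the lower panel the genes on each strand, blue for Ms4a genes and grey for others. The 6 Ms4a genes on the plus strand lie side by side, and BE692007 overlaps Ms4a6c on the opposite strand.

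BE692007 (chr19:11470166-11484578, minus strand) covers most of Ms4a6c, and without the strand of the reads the share of each gene in their counts is uncertain. Of all stretches of 100 bases in the exons of Ms4a6c, 45.8% also occurred in another gene, here BE692007, and of those of 50 bases 49.6% occurred in BE692007 and 51.4% in any other gene. The deviations of BE692007 and Ms4a6c had an r of 0.24 over the 8 mice, rank 5927 of 16483 genes. Ms4a6b is overlapped at its start by Gm19261 on the opposite strand (chr19:11516211-11516953), which had a median of 1.65 CPM and an r of 0.03 with Ms4a6b. Gm8369 and Ms4a6b ran opposite to each other, with r = -0.70.

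Other members shared less sequence with other genes. In Ms4a4c, 8.19% of the stretches of 50 bases and 1.66% of those of 100 bases also occurred in another gene, Ms4a4b above all. The share of 50-base stretches was 3.57% in Ms4a6b (2.57% with Ms4a6c), 2.54% in Ms4a6d, 2.40% in Ms4a4b, 1.21% in Ms4a1, 0.306% in Ms4a7 and 0% in Ms4a3. For Ms4a6b no stretch of 100 bases was shared with any other gene.

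The promoters of the plus-strand neighbours are shown because Ms4a6b and Ms4a6c had the closest deviations, with Ms4a4b and Ms4a4c as the pair beside them. The table of RefSeq promoters used (GRCm38.p6; 250 bases before to 50 after the start of transcription) held 7 promoters for 6 of the 8 members, with a pair for Ms4a7; Ms4a1 and Ms4a6d are not in that table. All 4 are on the plus strand: chr19:11518309-11518608 for Ms4a6b, chr19:11469118-11469417 for Ms4a6c, chr19:11443308-11443607 for Ms4a4b and chr19:11407411-11407710 for Ms4a4c. Capitals mark runs of 12 or more bases that occur in both promoters of a pair, Ms4a6b with Ms4a6c and Ms4a4b with Ms4a4c.
Ms4a6b: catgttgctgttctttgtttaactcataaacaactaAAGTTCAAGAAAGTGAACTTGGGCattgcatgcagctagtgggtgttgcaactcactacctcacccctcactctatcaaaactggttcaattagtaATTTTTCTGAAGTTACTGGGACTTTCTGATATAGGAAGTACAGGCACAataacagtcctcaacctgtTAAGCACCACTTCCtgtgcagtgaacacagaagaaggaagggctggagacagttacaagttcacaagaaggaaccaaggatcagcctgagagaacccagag
Ms4a6c: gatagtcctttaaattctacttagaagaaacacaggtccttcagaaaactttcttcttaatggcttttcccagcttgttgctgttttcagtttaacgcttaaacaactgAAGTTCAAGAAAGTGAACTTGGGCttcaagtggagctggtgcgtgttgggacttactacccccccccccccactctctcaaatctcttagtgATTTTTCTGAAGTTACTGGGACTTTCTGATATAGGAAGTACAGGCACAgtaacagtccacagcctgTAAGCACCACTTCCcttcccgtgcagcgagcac
Ms4a4b: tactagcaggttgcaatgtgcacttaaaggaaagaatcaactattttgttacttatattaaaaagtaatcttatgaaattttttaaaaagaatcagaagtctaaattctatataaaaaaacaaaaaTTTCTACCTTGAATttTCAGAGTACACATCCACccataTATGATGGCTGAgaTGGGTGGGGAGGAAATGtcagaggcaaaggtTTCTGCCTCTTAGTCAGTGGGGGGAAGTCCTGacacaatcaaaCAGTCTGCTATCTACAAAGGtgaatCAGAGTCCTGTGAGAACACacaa
Ms4a4c: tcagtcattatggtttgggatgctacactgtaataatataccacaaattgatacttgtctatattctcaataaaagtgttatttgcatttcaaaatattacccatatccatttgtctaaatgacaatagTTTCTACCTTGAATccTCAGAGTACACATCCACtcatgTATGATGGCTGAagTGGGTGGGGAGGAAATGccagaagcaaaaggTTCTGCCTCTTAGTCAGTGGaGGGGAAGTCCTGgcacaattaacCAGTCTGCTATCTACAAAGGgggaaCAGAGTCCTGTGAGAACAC

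Ms4a6b and Ms4a6c shared 86 bases in 3 runs of 24, 48 and 14 bases, and were 51.2% identical over the whole alignment, close to the 50.7% of Ms4a4c with Ms4a6b, a pair with no shared run of more than 8 bases. Ms4a4b and Ms4a4c, whose deviations were further apart, were more alike in sequence: 72.1% identical, with 131 bases in 8 runs, the longest of 20 bases. The RefSeq promoters of Ms4a6b and Ms4a4c lie inside the genes' extents in the GENCODE annotation, which begin at bases 11516512 and 11404770.

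On either strand, 8 short motifs were searched for in these 300 bases, and matches are given as a description. GAAAGTGAA was in 0.581% of all 32851 RefSeq promoters and in 2 of the 7 member promoters, those of Ms4a6b (bases 45 to 53) and Ms4a6c (bases 118 to 126), within the shared run of 24 bases. AGTTCA, a half-site type of nuclear receptors, was in 14% of promoters and in the same 2 of 7. It lay on both sides in that run, at bases 38 to 43 and, on the minus strand and overlapping GAAAGTGAA, at 50 to 55 of Ms4a6b, which held a further copy outside the run at 257 to 262. In Ms4a6c the positions were 111 to 116 and 123 to 128.

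The related AGGTCA was in 16.3% of all promoters and in 0 of 7, its direct repeat with 5 bases between the copies (the DR5 element of retinoic acid receptors) in 0.00913% and 0 of 7, and GAAA repeated after 2 bases in 3.44% and 0 of 7. GAGGAA, a core bound by the myeloid and B cell factor PU.1, was in 28.3% of all promoters and in 4 of 7, those of Ms4a7, Ms4a4c, Ms4a4b and Ms4a3. TGTGGT, a RUNX core, was in 16.8% and ATTTGCAT, the octamer, in 1.74%, each in 1 of 7, that of Ms4a4c.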

How the data were processed

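The read count per gene in each of the 8 spleen libraries was taken from the table deposited by the authors, as raw counts. The study's methods name trimming with ea-utils and Btrim, alignment with Bowtie2 and Tophat2, HTSeq and DESeq2. The submitters' processing notes name GRCm38, STAR 2.5.2b, featureCounts 1.5.1 and DESeq2 1.26.0. Which of these made the table, and how strand was used in counting, are not stated. The authors' comparison table, which holds a mean, log2 fold change, its standard error, statistic, p and adjusted p per gene, was not used.

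GENCODE M21 gave symbols and positions for 51633 of the 51826 identifiers. Counts were filtered with filterByExpr (minimum count 10), scaled by TMM and fitted in edgeR 4.0.16 (R 4.3.3, limma 3.58.1) with Benjamini-Hochberg FDR under 0.1 over the 16484 genes tested. Standard errors of log2 fold changes were derived from the quasi-likelihood F statistic. Deviations used log2 CPM with a prior count of 2. Alternatives were DESeq2 1.42.0, RLE or library size scaling, other filters, protein-coding genes alone, a prior count of 0.5, the replicate number as a block, and leaving out each mouse. The fit was tested on simulated data. Promoter sequences were credited to RefSeq, and motifs and shared stretches were searched in Python 3.11.15; figures used matplotlib 3.10.9.

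The genes named were the 8 members, all other Ms4a genes, Tmem176a and Tmem176b, the partner genes, the genes within the Ms4a stretch, the most abundant gene of each list, and the 5 genes closest in deviations to Ms4a6b and to Ms4a4b. Also named were Chil3, as a gene of both the monocyte and the granulocyte precursor list, and Camp and Ltf, after their DESeq2 values were seen. The members and lists were chosen with earlier results of these data known. The pairs of members and the alternatives for Ms4a6b with Ms4a6c were chosen after seeing the data.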

Additional observations from a re-analysis of the deposited data

Results flagged for a closer look

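A group of 4 mice was examined for a mouse far from the other 3 by the gap to its nearest neighbour as a share of the group's range. Of 62 groups examined, 2 held such a mouse, where chance gives about 1 in 20 groups, or 3.1 of the 62.

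Ms4a6c in control mouse 1 was at 25.5 CPM, while the other 3 controls were between 32.2 and 33.1 CPM, a gap of 0.877 of the range. The summed level of natural killer cell markers in tRA mouse 4 was 339 CPM, while the other 3 tRA mice were between 375 and 382 CPM, a gap of 0.832 of the range.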

How the results depend on the processing

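edgeR called 0 genes between tRA and control at an FDR under 0.1 (1070 at an unadjusted p under 0.05). DESeq2 called 27 (1247 at an unadjusted p under 0.05) and edgeR without a filter on low counts 6 (1592). Leaving out each mouse in turn gave 0 to 3 genes, with 3 without tRA mouse 4, and between 657 (without tRA mouse 4) and 2105 (without tRA mouse 1) at an unadjusted p under 0.05; the cause was not tested. Of the members 0 were called under any of the 15 alternatives, though DESeq2 gave an FDR to only 7 of the 8, not to Ms4a3. At an unadjusted p under 0.05 DESeq2 had 4 of the 8, beside 1247 of the 29805 genes to which it gave a p. Each member's log2 fold change kept its sign in 15 of 15, with ranges of 0.26 to 0.35 for Ms4a6b, 0.20 to 0.31 for Ms4a4b, 0.01 to 0.13 for Ms4a4c, 0.18 to 0.35 for Ms4a6c, 0.21 to 0.50 for Ms4a6d, 0.10 to 0.32 for Ms4a1, -1.19 to -0.77 for Ms4a3 and 0.05 to 0.27 for Ms4a7.

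With the replicate number as a block, 0 genes were called (1200 at an unadjusted p under 0.05). Genome-wide deviations of control and tRA mice with the same number had r values of 0.157, -0.0229, -0.0140 and 0.259 for numbers 1 to 4, and the labels give mice of the same number nothing in common but that number. Under this block the r of Ms4a6b with T cell markers turned to -0.64, and the cause was not tested; it was 0.29 for Ms4a3, 0.09 for Ms4a4b, 0.86 for Ms4a4c, 0.63 for Ms4a6c, 0.89 for Ms4a6d, 0.95 for Ms4a1 and 0.90 for Ms4a7 with their lists, and 0.60 for Ms4a6b with Ms4a6c. Leaving out each mouse gave r of 0.29 to 0.74 for Ms4a6b, 0.16 to 0.89 for Ms4a4b, 0.26 to 0.64 for Ms4a4c, 0.74 to 0.90 for Ms4a6c, 0.21 to 0.96 for Ms4a6d, 0.78 to 0.97 for Ms4a1, 0.60 to 0.77 for Ms4a3, 0.67 to 0.86 for Ms4a7 and 0.94 to 0.99 for Ms4a6b with Ms4a6c. For this pair the adjusted p was 0.0486 with RLE scaling or a prior count of 0.5, 0.146 with library size alone, and 0.0648 to 0.194 without a mouse, where the exact permutation p of 0.00694 is the smallest possible. With 15 to 60 reads per mouse, depth limits the precision of Ms4a3.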

Other observations

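Tmem176a and Tmem176b, the relatives of the Ms4a proteins on chromosome 6, were at 16.8 ± 2.11 and 29.2 ± 4.67 CPM in the controls and at 15.9 ± 1.29 and 27.1 ± 1.33 CPM in the tRA mice (SD, n = 4 each). Both had lower means in tRA, with log2 fold changes of -0.07 and -0.11 and overlapping groups. Of the 11 genes whose proteins work beside Ms4a proteins, such as Cd79a of the B cell receptor and the GITR gene Tnfrsf18, 10 were tested. Of these 3 had a log2 fold change above 0 and 7 below, with a median of -0.02, and 0 were called in edgeR or DESeq2, with 0 at an unadjusted p under 0.05 in edgeR. Their summed levels overlapped between groups. This list had the highest r with the deviations of Ms4a4c, 0.89, and r = 0.85 with those of Ms4a7. The list mean counts each gene alike, and 1 of the 11, the untested Fcer1a, had only 36 reads over the 8 mice. How far these r values rest on Fcer1a was not tested.

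The marker lists of other cell types had overlapping sums in tRA and control. Of 6 regulatory T cell markers, led by Foxp3, 4 had a log2 fold change below 0 (median -0.18); of 7 natural killer cell markers, led by Gzma, 4 (median -0.03); of 8 dendritic cell markers, led by Itgax, 5 (median -0.08). Basophil and mast cell markers, led by Hdc, were low, with 4 of 8 at a mean over the 8 mice under 1 CPM and sums of 38.6 to 57.9 CPM. Of 7 tested 5 were above 0 (median 0.03), and Fcer1a, the alpha chain of the receptor that Ms4a2 belongs to, was at 0.123 CPM in the controls and 0.143 CPM in the tRA mice. Erythroid genes, led by Hbb-bs, were the most uneven between mice, at 789, 1532, 2337 and 498 CPM in the controls and 2227, 633, 3599 and 596 CPM in the tRA mice, with 6 of 7 above 0 (median 0.43). Of 4 platelet genes tested, led by Itga2b, 3 were below 0 (median -0.23), and of 3 stroma genes tested, led by Col1a2, 2 were above 0 (median 0.03). In edgeR 1 dendritic cell marker and 1 basophil and mast cell marker, both higher, were at an unadjusted p under 0.05. The other lists of this paragraph had 0, and over all genes 2.94% were higher at such a p.

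Of 8 retinoic acid target genes, led by Rara, 6 were tested, 3 above 0 and 3 below (median -0.05), with sums of 160.2 to 195 CPM in the controls and 179 to 184 CPM in the tRA mice. With the deviations of the members, as a description, this list had r from -0.79 for Ms4a6b and -0.72 for Ms4a6c to 0.40 for Ms4a1, the only positive r. Of its 8 genes 3 had a mean over the 8 mice under 1 CPM, and the list mean counts each gene alike. How far these r values rest on the low genes was not tested.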
